A study of Mus musculus with 9 samples.

Results

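The transcripts described here are those of the tumour suppressor p53 (Trp53 in the mouse) and of 9 genes that p53 is known to switch on directly: Mdm2, Ccng1, Bax, Bbc3, Zmat3, Sesn1, Phlda3, Aen and Trp53inp1. These 10 genes were taken by name from a table of 49315 Ensembl genes, and all 10 were found once each and passed the filter on low counts. They were followed in immortalised pancreatic stellate cells, the fibroblast-like cells of the pancreas that lay down matrix when activated. The 9 poly-A RNA libraries form 3 groups of 3. R26 normoxia is cells with guide R26-sg1, against Rosa26, a locus that is usually cut as a harmless control, at 20% oxygen, R26 hypoxia is cells with the same guide at 0.5% oxygen, and HIF1a-ko hypoxia is cells with guide HIF1a-sg2 at 0.5% oxygen, each for 48 h. All groups share the C57BL6 background, the spontaneous outgrowth by which the line arose, lentiviral Cas9 and puromycin selection. The cells were polyclonal, 1 guide was used per target, and HIF1a-sg2 cells at 20% oxygen were not analysed here. No label states whether the 3 libraries of a group are independent cultures, and p-values therefore measure the spread among these samples, which may be technical.

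p53 is a transcription factor that is made and destroyed continuously in unstressed cells. Mdm2 marks it for degradation and is itself a p53 target, which closes a feedback loop, and DNA damage, oncogene signalling and other stresses interrupt that degradation. Because p53 is controlled mainly as a protein, the level of its own transcript says little about its activity, and the transcripts of its targets are the usual RNA readout. Spontaneous immortalisation of mouse fibroblasts is commonly accompanied by loss of p53 or of the Cdkn2a locus. Cells without p53, and cells treated to damage their DNA, were not analysed here, so whether any level below depends on p53 was not tested.

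All 10 are protein-coding genes, placed here on GRCm38 by GENCODE M21. On the plus strand lie Trp53 (ENSMUSG00000059552) at chr11:69580359-69591873, Bbc3 (ENSMUSG00000002083) at chr7:16308393-16318205, Sesn1 (ENSMUSG00000038332) at chr10:41809935-41908424. The same strand holds Phlda3 (ENSMUSG00000041801) at chr1:135766119-135769136, Aen (ENSMUSG00000030609) at chr7:78895854-78911209 and Trp53inp1 (ENSMUSG00000028211) at chr4:11156431-11174379. On the minus strand lie Mdm2 (ENSMUSG00000020184) at chr10:117688875-117710758, Ccng1 (ENSMUSG00000020326) at chr11:40748552-40755311, Bax (ENSMUSG00000003873) at chr7:45461697-45466898 and Zmat3 (ENSMUSG00000027663) at chr3:32334792-32366014.

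p53 binds DNA as a tetramer at a pair of decamers, stretches of 10 bases whose core is C, then 2 bases that are A or T, then G. Promoters, taken as the 300 bases from 250 before to 50 after each gene start in RefSeq on GRCm38.p6, were at hand for 8 of the 10 genes. Both strands were searched. A p53 decamer with at most 1 mismatch outside the core lay in the promoters of 7 of these 8 genes (87.5%), against 42.8% of all 27025 genes with a promoter. An exact decamer lay in 6 of the 8 (75%), against 9.55% of all genes. Some genes have several start sites, and counted by window it lay in 7 of 12 (58.3%), against 8.36% of all windows. The lines below show each exact decamer in capitals with 10 flanking bases on either side, because most of these 8 genes hold it.
Trp53: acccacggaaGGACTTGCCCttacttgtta
Mdm2: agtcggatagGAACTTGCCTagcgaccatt
Ccng1: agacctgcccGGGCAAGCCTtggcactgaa
Bax: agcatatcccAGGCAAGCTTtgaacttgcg
Sesn1: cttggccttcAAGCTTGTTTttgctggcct
Aen: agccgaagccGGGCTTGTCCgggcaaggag
These stretches lie at chr11:69580274-69580303 on the plus strand for Trp53, chr10:117710925-117710954 on the minus strand for Mdm2 and chr11:40755452-40755481 on the minus strand for Ccng1. Those of Bax, Sesn1 and Aen lie at chr7:45467080-45467109 on the minus strand, chr10:41887256-41887285 on the plus strand and chr7:78895927-78895956 on the plus strand. Counted from the gene start, the decamer covers positions -75 to -66 in Trp53, -186 to -177 in Mdm2, -185 to -176 in Ccng1 and -201 to -192 in Bax. In Sesn1 it covers positions -173 to -164 of the downstream of its start sites, and in Aen, whose start sites lie close together, positions -121 to -112 from one and 10 to 19 from the other. The windows of Bbc3 and Phlda3 held no exact decamer. A pair of decamers with at most 1 mismatch each and 0 to 13 bases between them was in none of the 8 genes, against 1.61% of all genes. Such a pair, without mismatch, was present upstream of Cdkn1a, the gene of the cell cycle inhibitor p21 and the best known p53 target. That window held 2 pairs with at most 1 mismatch per decamer, and the window of the downstream start site of Cdkn1a held none. Promoters were at hand for 27 of the other p53 targets listed below, Cdkn1a among them. A pair with at most 1 mismatch per decamer lay in 3 of the 27 (11.1%), against 1.61% of all genes. A pair without mismatch lay in 1 (3.7%), against 0.074%. Only the 2 decamers of the Cdkn1a pair without mismatch, with 12 bases between them, are marked here for comparison. They are shown with their flanks at chr17:29090896-29090925 and chr17:29090918-29090947 on the plus strand. The other pair of that window is the second decamer and the 10 bases right after it, which hold 1 mismatch and stay in lower case.
Cdkn1a first: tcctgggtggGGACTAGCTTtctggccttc
Cdkn1a second: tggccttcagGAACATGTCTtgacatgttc
A match describes letters only, and functional p53 sites often lie outside such a window.

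Libraries held 43837809 to 107840223 counts, and 1 library of each group (replicate 3 of both R26 groups and replicate 1 of HIF1a-ko hypoxia) was about as deep as the other pair together. These 3 deeper libraries stood apart from the other 6. Summed over 6 epithelial markers they held 14.1 to 46.5 CPM (counts scaled to library size with TMM factors) against 56.8 to 106 CPM in the shallower libraries, and over the fat cell markers Adipoq and Plin1 they held 0.0113 to 0.0416 against 10.8 to 22.6 CPM. The split was the same for the sums of leukocyte markers (8.25 to 16.3 against 25.2 to 42 CPM) and endothelial markers (4.5 to 6.18 against 9.58 to 13.1 CPM). Singly, some moved with the groups. Of 4 endothelial markers Vwf was lower in R26 hypoxia than in R26 normoxia (-0.68, adjusted p = 0.0345). Between the hypoxic groups Vwf was lower (-0.71, adjusted p = 0.0172) and Kdr higher (1.17, adjusted p = 0.0271) with the Hif1a guide. Of 5 leukocyte markers tested, only Cd79a was called there (-0.88, adjusted p = 0.0118). The sum of acinar or islet markers moved with the guide, at 4.41 to 5.09 CPM in HIF1a-ko hypoxia against 10.7 to 13.6 CPM in the R26 groups, with Prss1, Ins1 and Ins2 at 0 in every library. The sum of the 10 stellate or fibroblast markers also moved with the groups, at 17175 to 18926 CPM in R26 normoxia, 19381 to 20954 CPM in R26 hypoxia and 13077 to 13524 CPM in HIF1a-ko hypoxia, without overlap. Singly they did not move in 1 direction. In R26 hypoxia 4 were higher and 2 lower than in R26 normoxia, beside 12.8% and 12.4% of all genes. Pdgfra, a receptor of fibroblasts, was higher (0.50, adjusted p = 0.000134), while Dcn (-1.07, adjusted p = 0.000159) and Acta2 (-0.95, adjusted p = 4.45e-05) were lower. In HIF1a-ko hypoxia 1 was higher and 5 lower than in R26 hypoxia, beside 22% and 23.8% of all genes. Pdgfra was lower (-1.70, adjusted p = 5.33e-08) and Acta2 higher (0.54, adjusted p = 0.000306). Of the epithelial markers, Krt19 and Muc1 were higher in R26 hypoxia than in R26 normoxia (1.52, adjusted p = 0.00931, and 1.26, adjusted p = 0.000794). Both were lower in HIF1a-ko hypoxia than in R26 hypoxia (-1.62, adjusted p = 0.00305, and -1.46, adjusted p = 9.84e-05). Lum and Des, a classical stellate cell marker, reached only 4.04 and 3.73 CPM. In every group both were lower in the deeper library than in the mean of the shallower ones. The log2 ratio was -0.77, -3.86 and -2.55 for Lum and -2.37, -3.53 and -1.47 for Des (R26 normoxia, R26 hypoxia, HIF1a-ko hypoxia). The part of these marker differences, or of any admixed transcripts, in the values below was not tested, but each p53 gene had 1133 (Bbc3) to 57109 (Ccng1) counts per library, and counts of changed genes are also given for the 6 shallower libraries alone. Hif1a, the targeted gene, stood at 192 to 225 CPM in R26 normoxia, 169 to 207 CPM in R26 hypoxia and 117 to 125 CPM in HIF1a-ko hypoxia, a difference of -0.60 ± 0.09 (log2, SE) between the hypoxic groups (adjusted p = 0.000358). Since Cas9 can disrupt a protein while its mRNA persists, this checks the labels only in part. Between the R26 groups Hif1a did not pass the test (-0.14, adjusted p = 0.279). It passed, lower in hypoxia, with the replicate number as a block (-0.12, adjusted p = 0.0173). It also passed with a term for deeper and shallower libraries (-0.14, adjusted p = 0.0425).

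All 10 genes were well expressed in R26 cells at 20% oxygen. Per kilobase of annotated exon, Ccng1 (109.5 ± 9.04 CPM per kb, SD, n = 3), which encodes cyclin G1, and Phlda3 (106.5 ± 7.04), which encodes a competitor of the survival kinase AKT at the membrane, were the highest, and their libraries overlapped. Bax, the pore-forming death protein, followed with 74.9 ± 9.12 CPM per kb. Mdm2 (36.6 ± 0.603), Trp53inp1 (34.1 ± 4.64) and Trp53 itself (32.1 ± 1.8) came next, with Trp53inp1 overlapping both of its neighbours while Mdm2 and Trp53 did not overlap. Sesn1 (13.8 ± 0.261) and Bbc3 (13.8 ± 0.568) overlapped each other, and Aen (12.1 ± 0.518) and Zmat3 (9.18 ± 0.584) lay below them without overlap. By this per-kb measure Ccng1 was higher than 98.3% of the 18211 genes tested, Mdm2 than 93.5%, Trp53 than 92.4%, and Zmat3, the lowest, than 71.9%. Cdkn1a stood at 34.7 ± 0.786 CPM per kb, higher than 93.1% of genes. When the longest transcript was used as the length, Phlda3 (115.7 CPM per kb) came before Ccng1 (109.5) and Bbc3 (16.1) before Sesn1 (14.4), and the other places in the order were kept.

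The order was nearly the same in the other groups. In R26 hypoxia Trp53 (24.6 ± 2.54 CPM per kb) and Trp53inp1 (23.6 ± 2.23) changed places while overlapping. In HIF1a-ko hypoxia Ccng1 (164.5 ± 4.16) no longer overlapped Phlda3 (104.5 ± 7.97), and Aen (17.7 ± 0.47) stood above Bbc3 (14.9 ± 1.17) and Sesn1 (10.4 ± 0.638).

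**Figure D1:**
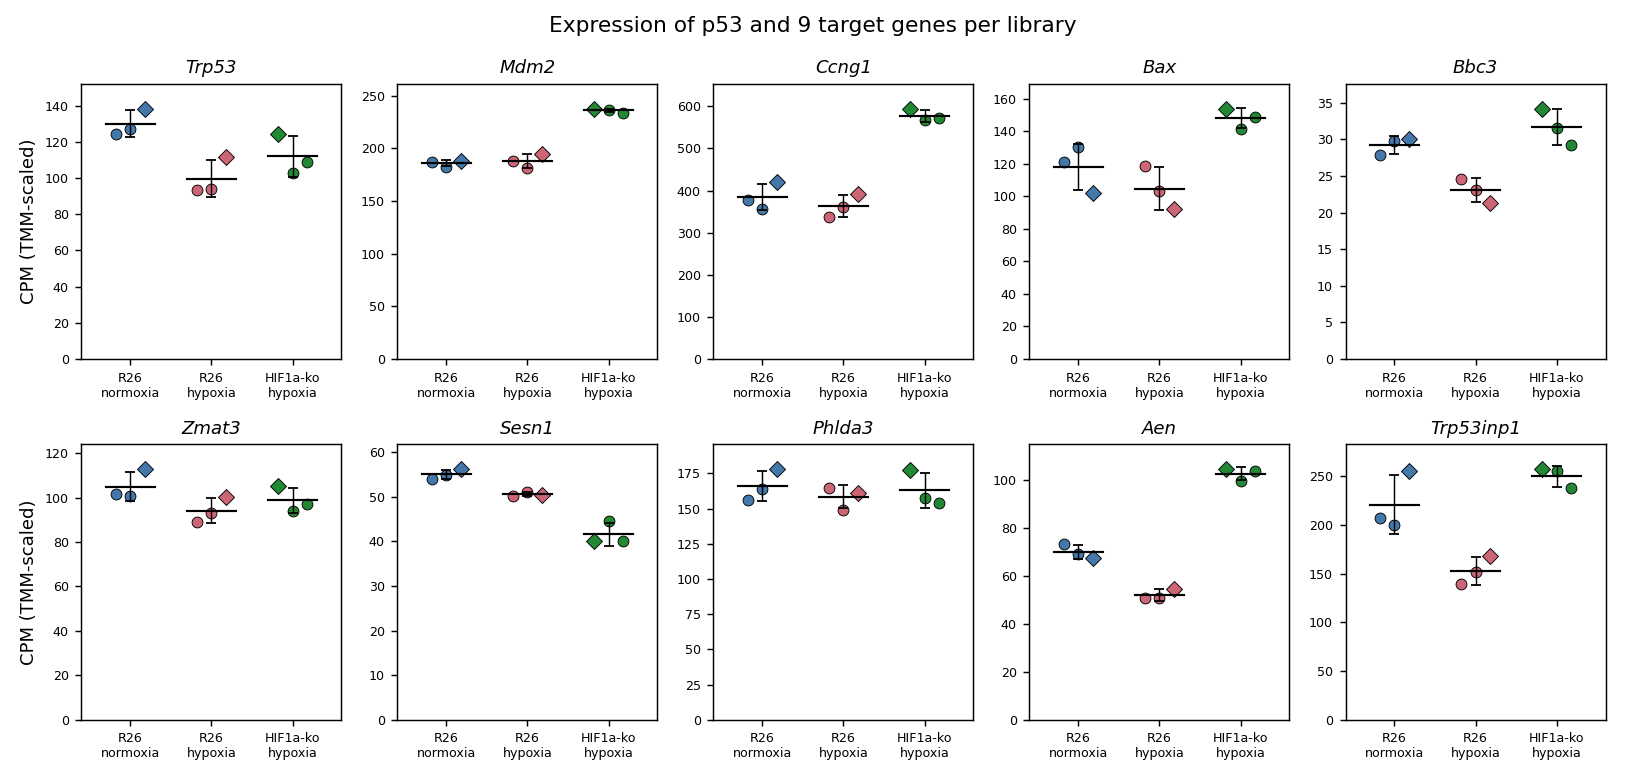
Expression of p53 and its 9 targets in every library, in CPM scaled with TMM factors on axes that start at 0; circles are the shallower and diamonds the deeper libraries, the bar is the mean and the whisker the SD of 3 libraries. Aen ran from 50.7 to 54.8 CPM in R26 hypoxia and from 99.6 to 105 CPM in HIF1a-ko hypoxia, while the groups of Phlda3 overlapped.

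The first comparison asked how low oxygen changed these genes in R26 cells. Trp53 and 3 of its 9 targets, Trp53inp1, Aen and Bbc3, were lower in R26 hypoxia, and none was higher. Of all genes tested 25.2% changed, 12.8% higher and 12.4% lower. The libraries of 6 of the 10 genes did not overlap, all 6 lower, against 38.4% of all genes (19.3% higher and 19.1% lower). The median log2 fold change of the 10 genes was -0.16, against -0.01 over all genes. No gene of the 10 was higher by edgeR at an unadjusted p under 0.05 or by DESeq2. In the 6 shallower libraries 4 of the 10 fell as well, and none rose. The total of changed genes there stayed within 1.5 times that of the main fit. Shares of all genes by direction in that fit are not given here, so its counts are not compared with them. These are bulk samples, in which fewer expressing cells and less RNA per cell cannot be told apart.

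In order of replicate number, Trp53 stood at 125, 127 and 138 CPM in normoxia against 93.4, 94.2 and 112 CPM in hypoxia. Every hypoxic library lay below every normoxic one, and the deeper library was the highest of each group. The log2 fold change was -0.38 ± 0.09 (adjusted p = 0.0132). The call was lost without R26 normoxia 3 (-0.32, adjusted p = 0.0502) and without R26 hypoxia 2 (-0.34, adjusted p = 0.0529). Of the 50-base stretches of Trp53 transcripts 3.95% also occur in other genes, mainly in the pseudogene Trp53-ps.

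Mdm2, the ubiquitin ligase that limits p53, stood at 187, 183 and 188 CPM in normoxia against 188, 181 and 194 CPM in hypoxia. The groups overlapped, and the log2 fold change of 0.01 had a 95% interval of -0.08 to 0.11 (adjusted p = 0.854). Ccng1, whose product brings a phosphatase to Mdm2, overlapped as well, at 357 to 419 and 338 to 391 CPM (interval -0.24 to 0.08, adjusted p = 0.476). Cdkn1a stood at 122, 126 and 121 CPM in normoxia and 115, 116 and 119 CPM in hypoxia, a difference of -0.08 ± 0.04 that did not pass the test (adjusted p = 0.171) although the libraries did not overlap.

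Among the death genes, Bbc3, which encodes the BH3-only protein PUMA, gave 27.9, 29.8 and 30.1 CPM in normoxia against 24.6, 23.1 and 21.3 CPM in hypoxia. The groups did not overlap (log2 fold change -0.35 ± 0.08, adjusted p = 0.00918). Aen, a nuclease that takes part in cutting DNA during apoptosis, was counted at 73.5, 69.1 and 67.7 CPM and at 50.8, 50.7 and 54.8 CPM. It too was lower in every hypoxic library, by -0.43 ± 0.05 (adjusted p = 0.000312). Bax stood at 121, 130.47 and 102 CPM against 118, 103 and 92.3 CPM, overlapping groups in which the deeper library was the lowest of each (-0.17 ± 0.11, adjusted p = 0.284). With the replicate number as a block Bax was called (-0.15, adjusted p = 0.0421). Bax shares 8.51% of its 50-base stretches with Gm45808, which overlaps it on the same strand. Phlda3 ranged from 156 to 178 and from 149 to 165 CPM (interval -0.23 to 0.09, adjusted p = 0.561).

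Of the stress genes, Trp53inp1, a nuclear protein that aids p53 and autophagy, had the lowest log2 fold change of the 10 genes. Its 207, 200.44 and 255 CPM in normoxia did not overlap its 139, 152 and 168 CPM in hypoxia (-0.53 ± 0.10, adjusted p = 0.00435). Sesn1, a sestrin that restrains the growth kinase complex mTORC1, stood at 54, 54.9 and 56.1 CPM and at 50.2, 51 and 50.4 CPM. The gap was smaller than the test could call (-0.12 ± 0.05, adjusted p = 0.11). Zmat3, a zinc finger protein that binds RNA, stood at 101, 101 and 113 CPM and at 89, 93.3 and 100.3 CPM (-0.16 ± 0.07, adjusted p = 0.119). It was called when deeper and shallower libraries had a term of their own (-0.16, adjusted p = 0.0051), with 5 of the 10 genes lower. That fit called 6959 of all genes, against 4591 in the main fit. Zmat3 was also called with the replicate block (-0.14, adjusted p = 0.0126), with 6 of the 10 lower. In the blocked fit 41.7% of all genes changed, 22.1% higher and 19.6% lower.

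**Figure D2:**
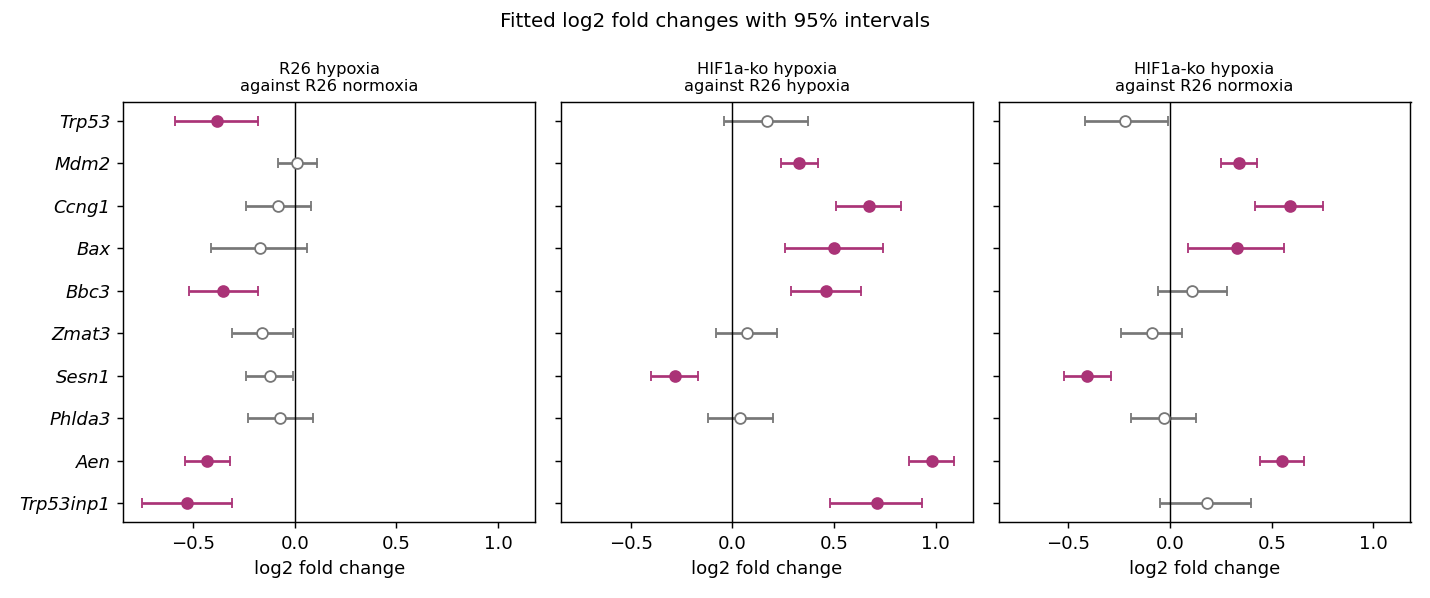
Fitted log2 fold changes of p53 and its 9 targets in the 3 comparisons; points are estimates, whiskers are 95% intervals, and filled points passed an adjusted p of 0.05. In R26 hypoxia against R26 normoxia the 4 filled points lie at -0.35 to -0.53, and in HIF1a-ko hypoxia against R26 hypoxia Aen lies farthest right, at 0.98.

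The second comparison asked what the Hif1a guide changed in low oxygen. Here 6 of the 10 genes, Mdm2, Ccng1, Bax, Bbc3, Aen and Trp53inp1, were higher in HIF1a-ko hypoxia than in R26 hypoxia, and Sesn1 was lower. Of all genes 45.8% changed, 22% higher and 23.8% lower. The same 7 were the ones whose libraries did not overlap, against 54.6% of all genes (26.4% higher and 28.1% lower). The median log2 fold change of the 10 genes was 0.40, against -0.02 over all genes. In the 6 shallower libraries 7 rose and 1 fell, and the total of changed genes stayed within 1.5 times that of the main fit. Shares by direction in that fit are not given here, so the count of 7 is not read as more than that of the main fit. Since this comparison and the first share the R26 hypoxia libraries, a chance deviation there would push them in opposite directions, and their values are given only side by side.

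Aen had the highest log2 fold change. From 50.8, 50.7 and 54.8 CPM in R26 hypoxia it was counted at 105, 99.6 and 104 CPM in HIF1a-ko hypoxia, 1.97-fold higher with no overlap (0.98 ± 0.05, adjusted p = 4.92e-07). Trp53inp1 stood at 257, 255 and 238 CPM in HIF1a-ko hypoxia, 1.63-fold above R26 hypoxia (0.71 ± 0.10, adjusted p = 0.000312). Its lowest HIF1a-ko library lay well above the highest R26 hypoxia library, at 168 CPM.

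Mdm2 was counted at 238, 236 and 234 CPM in HIF1a-ko hypoxia, against 181 to 194 CPM in R26 hypoxia. The step was small but the spread within each group was smaller (0.33 ± 0.04, adjusted p = 0.000128). Ccng1, at 594, 567 and 571 CPM, was 1.59-fold higher (0.67 ± 0.07, adjusted p = 5.52e-05). Cdkn1a went the other way, at 88.6, 87 and 84.5 CPM against 115 to 119 CPM (-0.43 ± 0.04, adjusted p = 1.53e-05), so these 3 p53 targets of the cell cycle and of p53 turnover did not move in 1 direction. Cdkn1a shares 8.49% of its 50-base stretches with other genes, mainly AC167363.2 on the opposite strand.

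Both BCL2-family members were higher. Bax was counted at 154, 142 and 149 CPM, above all R26 hypoxia libraries (0.50 ± 0.11, adjusted p = 0.00351), and its deeper library was now the highest of the group. Bbc3 was counted at 34.2, 31.5 and 29.2 CPM (0.46 ± 0.08, adjusted p = 0.000812). Phlda3, at 177, 158 and 154 CPM, overlapped R26 hypoxia (interval -0.12 to 0.20, adjusted p = 0.682). Zmat3, at 105, 94 and 97.2 CPM, overlapped as well (interval -0.08 to 0.22, adjusted p = 0.444). Sesn1 fell, to 40, 44.5 and 40.1 CPM (-0.28 ± 0.05, adjusted p = 0.00132).

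Trp53 was counted at 124, 103 and 109 CPM in HIF1a-ko hypoxia and overlapped R26 hypoxia. The estimate, 0.17 ± 0.09 on the log2 scale, did not pass (adjusted p = 0.169). The call depended on the deeper libraries: it was made in the 6 shallower libraries (0.18, adjusted p = 0.00966), when deeper and shallower libraries were given a term of their own (0.17, adjusted p = 0.00348) and without R26 hypoxia 3 (0.25, adjusted p = 0.0333).

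The third comparison set HIF1a-ko hypoxia against R26 normoxia, in which oxygen and guide both differ and cannot be told apart. Of the 10 genes 4 were higher, Mdm2, Ccng1, Bax and Aen, and 1, Sesn1, was lower. Of all genes 41.4% changed, 19.5% higher and 21.9% lower. The libraries of 4 genes lay wholly above and those of Sesn1 and Trp53 wholly below R26 normoxia, against 53.2% of all genes without overlap (25.5% higher and 27.8% lower). The median log2 fold change was 0.14, against -0.01 over all genes. In the 6 shallower libraries 5 rose and 2 fell, with the total of changed genes again within 1.5 times that of the main fit. Shares by direction in that fit are again not given, so these counts are not read as more than those of the main fit. Each of the other comparisons shares a group with this one.

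Ccng1 was 1.5-fold (0.59 ± 0.07, adjusted p = 0.000157) and Aen 1.47-fold (0.55 ± 0.05, adjusted p = 2.04e-05) above R26 normoxia, with every HIF1a-ko library above every normoxic one. Mdm2 differed by 0.34 ± 0.04 (adjusted p = 0.000119), close to its 0.33 against R26 hypoxia. Bax differed by 0.33 ± 0.10 (adjusted p = 0.0319), a call lost without any 1 of R26 normoxia 1 (adjusted p = 0.0658), R26 normoxia 3 (adjusted p = 0.076), HIF1a-ko hypoxia 1 (adjusted p = 0.0758), HIF1a-ko hypoxia 2 (adjusted p = 0.0515) and HIF1a-ko hypoxia 3 (adjusted p = 0.0662). Sesn1 was 1.32-fold lower (-0.41 ± 0.05, adjusted p = 0.000167).

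Bbc3 (interval -0.06 to 0.28) and Trp53inp1 (interval -0.05 to 0.40), which differed between the other groups, overlapped R26 normoxia here (adjusted p = 0.269 and 0.19). For Trp53inp1 the call was made without R26 normoxia 3 (0.32, adjusted p = 0.0112), the deeper library at 255 CPM, and in the 6 shallower libraries (0.29, adjusted p = 0.000578). Trp53 lay below R26 normoxia in every HIF1a-ko library. The margin was narrow, with 124.34 CPM in the deeper HIF1a-ko hypoxia 1 and 124.53 CPM in the shallower R26 normoxia 1. The difference of -0.22 ± 0.09 did not pass the test (adjusted p = 0.0855). It did pass in the 6 shallower libraries (-0.23, adjusted p = 0.00172), without HIF1a-ko hypoxia 1 (-0.28, adjusted p = 0.0332) and without R26 hypoxia 3 (-0.22, adjusted p = 0.0375). Zmat3 and Phlda3 overlapped R26 normoxia (adjusted p = 0.328 and 0.807).

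A wider list of 35 p53 targets, Cdkn1a among them and none of the 10 genes, was tested in full. In R26 hypoxia 4 rose and 8 fell against R26 normoxia, beside 12.8% and 12.4% of all genes, with a median log2 fold change of -0.11. With the replicate block 8 rose and 10 fell, beside 22.1% and 19.6% of all genes. Tigar, which diverts glucose away from glycolysis, fell from 20.9 ± 2.32 to 10.8 ± 0.107 CPM (-0.95, adjusted p = 0.000275). The reductase gene Dcxr fell by 0.72 (adjusted p = 0.0056) and Pmaip1, which encodes the BH3-only protein NOXA, by 0.50 on the log2 scale (adjusted p = 0.00281). Those that rose most were Pml, the organiser of nuclear bodies (0.46, adjusted p = 0.00142), the translesion polymerase gene Polk (0.37, adjusted p = 0.0014) and the adenylate kinase gene Ak1 (0.34, adjusted p = 0.0057). The replicate block added Fdxr (0.19, adjusted p = 0.0125) and Tnfaip8 (0.14, adjusted p = 0.019) among the named genes.

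In HIF1a-ko hypoxia 15 of the 35 were higher and 8 lower than in R26 hypoxia, beside 22% and 23.8% of all genes, with a median of 0.17 against -0.02. Gtse1, a microtubule-binding protein of dividing cells that also restrains p53, rose from 22.4 ± 2.98 to 62.8 ± 6.18 CPM (1.49, adjusted p = 5.28e-06). The stress cytokine gene Gdf15 rose 2.33-fold, from 4.85 ± 0.687 to 11.3 ± 1.48 CPM (adjusted p = 6.62e-05). Sesn2, the sestrin related to Sesn1, rose 2.05-fold, from 36.2 ± 2.09 to 74.3 ± 5.2 CPM (adjusted p = 1.6e-06), whereas Sesn1 fell. Gdf15 and Sesn2 are also known targets of the amino acid response factor ATF4, and Gtse1 of the cell cycle programme. Tnfaip8 (-0.66, adjusted p = 7.01e-06), the mitochondrial reductase gene Fdxr (-0.61, adjusted p = 2.41e-05) and the tetraspanin gene Cd82 (-0.56, adjusted p = 5.32e-05) fell most.

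Against R26 normoxia 12 of the 35 were higher and 9 lower in HIF1a-ko hypoxia, beside 19.5% and 21.9% of all genes, with a median of 0.13 against -0.01. Gtse1 (1.37, adjusted p = 1.11e-05), Gdf15 (1.33, adjusted p = 4.83e-05) and Sesn2 (0.77, adjusted p = 1.31e-05) were again the highest of the list, and Cd82 (-0.68, adjusted p = 1.91e-05), the kinase gene Plk3 (-0.63, adjusted p = 0.00283) and Tnfaip8 (-0.53, adjusted p = 3.44e-05) the lowest among those called. Cdkn1a was lower too, with means of 86.7 and 123 CPM (-0.51 ± 0.04, adjusted p = 6.74e-06). Tigar, at 21.8 ± 2.71 CPM, overlapped R26 normoxia (interval -0.18 to 0.30, adjusted p = 0.698).

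**Figure D3:**
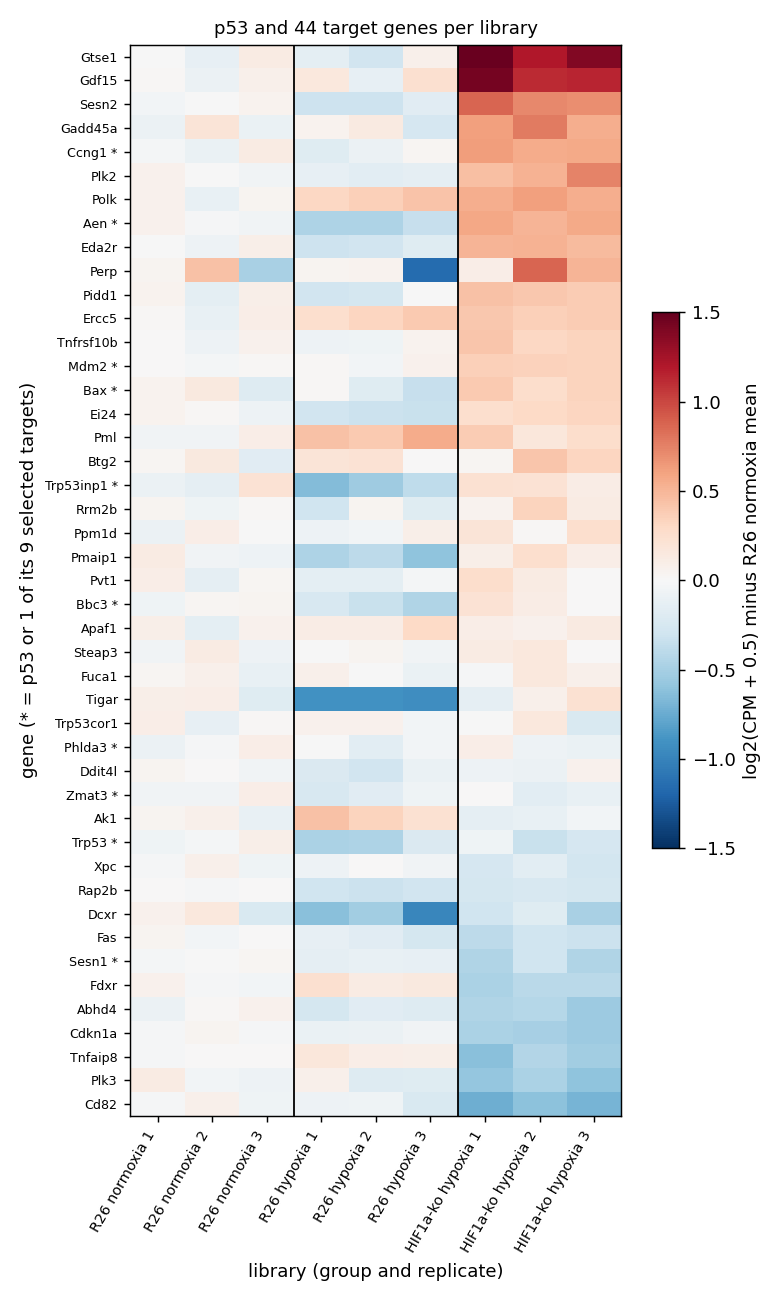
Log2(CPM + 0.5) of p53 and 44 target genes in each of the 9 libraries, minus the gene's R26 normoxia mean, ordered by the mean of HIF1a-ko hypoxia; asterisks mark p53 and its 9 selected targets, and colours saturate at 1.5. Gtse1, Gdf15 and Sesn2 head the HIF1a-ko columns and Cd82, Plk3 and Tnfaip8 close them, while Tigar has the lowest mean over the R26 hypoxia columns.

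Of 20 regulators and relatives of p53, 19 were tested. In R26 hypoxia 3 rose and 6 fell against R26 normoxia, beside 12.8% and 12.4% of all genes, with a median of 0.05. With the replicate block 6 rose and 6 fell, beside 22.1% and 19.6% of all genes, and without R26 normoxia 3 the counts were 5 and 6. Ppp1r13l, which encodes the p53 inhibitor iASPP, rose from 17.9 ± 0.527 to 32.9 ± 1.57 CPM (0.88, adjusted p = 5.86e-05). Mdm4, the partner of Mdm2 that blocks p53 activity, rose from 188.9 ± 8.71 to 230.8 ± 22.1 CPM (0.29, adjusted p = 0.015), a call lost without R26 normoxia 2 (adjusted p = 0.061). Prkdc, the DNA-dependent protein kinase, rose by 0.43 (adjusted p = 0.00662). Sirt1, a deacetylase of p53, fell by 0.66 (adjusted p = 0.000219) and Ppp1r13b, which encodes the p53 cofactor ASPP1, by 0.54 on the log2 scale (adjusted p = 0.000591). Atr, the kinase of stalled replication forks, was added by the replicate block (0.34, adjusted p = 0.00245). Of its 50-base stretches Mdm4 shares 7.31% with other genes, mainly Mdm4-ps.

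Cdkn2a, the locus of p16 and of the Mdm2 inhibitor p19ARF, was expressed in every library. It stood at 75.2, 80.7 and 73.5 CPM in R26 normoxia, 61.3, 58.5 and 53.4 CPM in R26 hypoxia, and 58.9, 57.1 and 52.3 CPM in HIF1a-ko hypoxia. Both hypoxic groups lay below normoxia (-0.41, adjusted p = 0.00215, and -0.44, adjusted p = 0.000561) and overlapped each other (interval -0.19 to 0.11, adjusted p = 0.675). Counts per gene do not separate its p16 and p19ARF transcripts, and neither they nor the counts of Trp53 show whether the coding sequence is intact. Of the relatives of p53, Trp63 reached 0.44 CPM at most and Trp73 0.06 CPM, the latter below the filter.

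Between the hypoxic groups 5 of the 19 regulators were higher and 5 lower with the Hif1a guide, beside 22% and 23.8% of all genes, so the list's share of changed genes was near that of all genes (45.8%). Chek1, the checkpoint kinase, rose from 5.83 ± 0.691 to 21.9 ± 1.5 CPM (1.91, adjusted p = 3.79e-06), and the damage kinases Atm (0.74, adjusted p = 3.51e-05) and Atr (0.61, adjusted p = 0.00108) rose as well. Ppp1r13l fell to 14.9 ± 1.35 CPM (-1.14, adjusted p = 2.27e-06), Mdm4 to 184 ± 6.08 CPM (-0.33, adjusted p = 0.00393) and the acetyltransferase gene Kat5 by 0.24 on the log2 scale (adjusted p = 0.00585). Exons of Kat5 overlap Rnaseh2c, and those of Atr overlap 1700065D16Rik and Gm16794, on the opposite strand. Against R26 normoxia 6 were higher and 7 lower, beside 19.5% and 21.9% of all genes. Chek1 (log2 fold change 1.86), Atr (0.93) and Atm (0.69) led the first and Ppp1r13b (-0.52), Sirt1 (-0.49) and Kat5 (-0.47) the second, while Mdm4 overlapped (interval -0.20 to 0.12, adjusted p = 0.723).

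p53 also lowers genes of cell division indirectly, through p21 and the repressor complex DREAM. Of 12 such genes, 2 rose and none fell in R26 hypoxia against R26 normoxia, with a median of 0.14. None fell at an unadjusted p under 0.05 in the main edgeR fit or by DESeq2 either. The shares over all genes were 12.8% and 12.4%. The count of 2 depended on single libraries: it was 0 without R26 normoxia 2 (2 at an unadjusted p under 0.05 by edgeR), 1 without R26 normoxia 1 or without R26 hypoxia 1, and 5 without R26 hypoxia 2. Without R26 hypoxia 1, 1 gene of the list also fell at an unadjusted p under 0.05 by edgeR. Fits without 1 library called 3287 to 4373 of all genes. With deeper and shallower libraries given their own term 4 rose, and with the replicate block 5 rose. Those 2 fits called 6959 and 7259 of all genes, against 4591 in the main fit. Mki67, present in cycling but not resting cells, had means of 81.7 and 110.2 CPM and rose (0.43, adjusted p = 0.0169), a call lost without R26 normoxia 1 (adjusted p = 0.0592) or R26 normoxia 2 (adjusted p = 0.0629). All 12 were higher in HIF1a-ko hypoxia than in R26 hypoxia, as were 22% of all genes, with a median of 1.90. All 12 were also higher than in R26 normoxia, as were 19.5% of all genes, with a median of 2.15. Top2a was the highest in both (2.26, adjusted p = 6.64e-07, and 2.51, adjusted p = 5.48e-07). Between the R26 groups Top2a was not called (0.25, adjusted p = 0.16), but it was with the replicate block (0.26, adjusted p = 0.00104). Chek1 belongs to both this list and the regulators. The higher levels of these genes and the lower level of Cdkn1a were found in the same libraries as the higher levels of Mdm2, Ccng1, Bax, Bbc3, Aen and Trp53inp1. Whether p53, p21, DREAM or the share of cycling cells had a part in these levels was not tested.

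**Figure D4:**
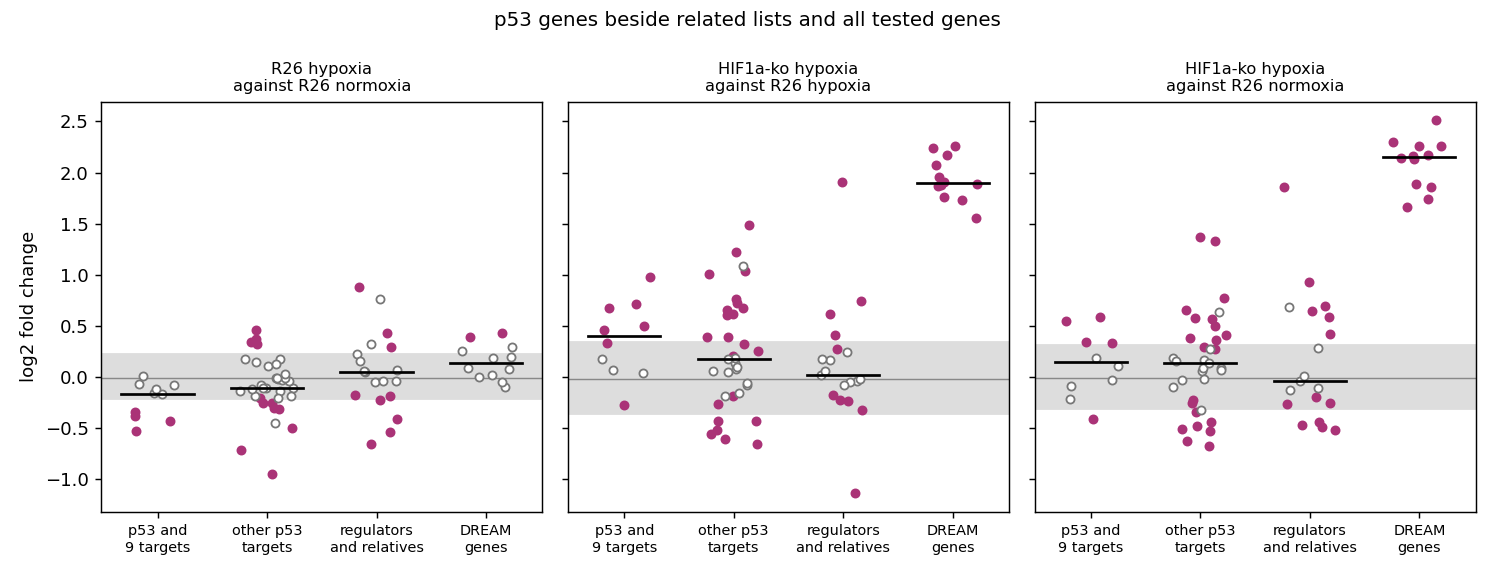
Log2 fold changes of p53 and its 9 targets beside 35 other targets, 19 regulators and relatives, and 12 genes of the DREAM list. Filled points passed an adjusted p of 0.05, and black bars are list medians. The grey band and line are the middle 50% and the median of all 18211 genes. The DREAM list has medians of 1.90 and 2.15 in the HIF1a-ko comparisons, while the 10 p53 genes have medians of 0.40 and 0.14.

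Over the 9 libraries, the genes whose log2 CPM followed Trp53 most closely among the 9961 genes whose mean log2 CPM reached 3 were Ints7 (Pearson r = 0.978), Fam149a (0.978), Slc38a7 (0.977), Tm7sf2 (0.976) and Pdgfa (0.976). For Mdm2 they were Fam83d (0.999), Kif20b (0.998), Cenpn (0.998), Stil (0.998) and Kif20a (0.998). These libraries share group and depth, so the values describe a shared pattern over 9 points only. Kif20a had means of 40.8 and 43.1 CPM in the R26 groups (normoxia first) and 173 CPM with the Hif1a guide, a larger step than that of Mdm2, with 186, 188 and 236 CPM.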

How the data were processed

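Poly-A RNA was sequenced in 9 libraries. The deposited values are raw read counts per Ensembl gene. Software named per the submitters' processing notes is STAR, featureCounts, Trimmomatic, bcl2fastq (2.17) and DESeq2, on build GRCm38. For annotation release, strand and multiply mapping reads, the setting is not given in the sources used here, and reads of overlapping or near-identical genes could be misassigned. One column name holds the parts of its sample title in another order. GENCODE M21 named 48970 of 49315 identifiers.

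The test on counts was that of edgeR (version 4.0.16, under R 4.3.3; quasi-likelihood, TMM, filterByExpr, group as the only term, all 9 libraries), adjusted by Benjamini-Hochberg over 18211 genes, with 0.05 as the threshold, and checked on simulated counts. Every adjusted p is from edgeR unless DESeq2 (1.42.0) is named. The SE was taken from the F statistic. CPM are TMM-scaled. Same-numbered libraries of R26 normoxia and R26 hypoxia deviated together (r = 0.48, 0.53 and 0.855, with r = 0.498 and 0.587 across numbers 1 and 2, and number 3 the deeper library of both groups), so blocked values are given where they change a call. In the HIF1a-ko comparisons they did not (r = -0.667 to 0.587), and the numbers are not taken as pairs there. Shared sequence is the percent of a gene's 50-base stretches found in transcripts of other genes on either strand.

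Genes and lists were chosen with earlier results of these data known. Text names the 10 genes, Cdkn1a, Mdm4, Cdkn2a and Hif1a throughout, plus the 3 highest and 3 lowest called genes (mean of at least 1 CPM) of each of the other target and regulator lists, the most changed DREAM gene, and the 5 genes most like Trp53 and Mdm2. The alternatives were other scalings, no filter, DESeq2, only the groups compared, a replicate block, depth class, the 6 shallower libraries and leaving out each library.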

Additional observations from a re-analysis of the deposited data

How the results depend on the processing

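Low oxygen changed 4591 of all genes in R26 cells, a number that moved to 6959 when depth class was added to the fit and to 7259 with the replicate block. No other total of genes changed in either direction, over all genes or over the 10 p53 genes, moved by more than 1.5 times under the alternatives run. By direction, the count of p53 genes lower in HIF1a-ko hypoxia than in R26 normoxia went from 1 to 2 in some fits. These were the fits with depth class, with the 6 shallower libraries, without R26 hypoxia 3 and without HIF1a-ko hypoxia 1. Of the 10 p53 genes, 4, 7 and 5 changed in the 3 comparisons in the order given, and leaving out 1 library gave 3 to 4, 7 to 8 and 4 to 6. For all genes leaving out 1 library gave 3287 to 4373, 7195 to 8400 and 6309 to 7995. No call among the genes named turned direction. In the HIF1a-ko comparisons the replicate block left the calls of the 10 genes as they were (7 and 5), and among other named genes it ended the calls for Plk3 (-0.53, adjusted p = 0.0523, against R26 hypoxia) and Ppp1r13l (-0.26, adjusted p = 0.076, against R26 normoxia) and added Dcxr (-0.33, adjusted p = 0.0137, against R26 normoxia). The call for Ppp1r13l against R26 normoxia was also lost without R26 normoxia 3, HIF1a-ko hypoxia 2 or HIF1a-ko hypoxia 3, and with no filter (-0.23, adjusted p = 0.0798). The cause of these moves was not tested. The count of genes with a p53 decamer was 6 with no mismatch and 7 with 1 allowed. Each p53 gene had at least 1133 counts in every library.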

Other observations

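Perp, a p53 target that encodes a protein of epithelial cell junctions, was chosen after its values were seen. In order of replicate number, R26 normoxia gave 1.36, 1.95 and 0.788 CPM. R26 hypoxia gave 1.35, 1.37 and 0.312 CPM, and HIF1a-ko hypoxia 1.43, 2.8 and 2.08 CPM. The deeper library was the lowest of each group, as it was for the summed epithelial markers. The part of epithelial transcripts in this pattern was not tested. Perp passed the test in no comparison (edgeR adjusted p = 0.63, 0.139 and 0.394).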
